A study of Mus musculus with 8 samples.

Results

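The 10 genes described here encode the molecules that carry peptides to T cells and the machinery that supplies them: H2-K1, H2-D1, B2m, Tap1 and Tap2 of the class I pathway, H2-Aa, H2-Ab1, H2-Eb1 and Cd74 of the class II pathway, and Ciita, the regulator of class II transcription. They were found by gene name among the non-control spots of the array, as 10 of 37074 distinct names, and were read by 20 of 56605 probes. A filter on dim signal kept 16 of the 20, those that the scanner software called well above background on 4 or more arrays of 8, and every gene kept at least 1 probe. RNA came from the tibialis anterior, the muscle at the front of the shin, of male C57BL/6J mice aged 14 weeks. For 4 arrays the mice had been dosed orally for 6 weeks, starting at 8 weeks of age, with Porphyromonas gingivalis, a Gram-negative anaerobe linked to gum disease, in 100 µL of saline, and the mice of the other 4 arrays were controls. Per the labels' protocols both groups ate a high-fat diet, so no group on ordinary chow is part of the comparison. The sources used here do not say what the controls were given, how many bacteria were given or whether each array is a separate mouse, so p-values measure the spread between these samples, which may be technical. The comparison asks whether antigen presentation transcripts in muscle differ after the bacterium was given by mouth.

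Class I molecules are made by nearly all nucleated cells. Proteasome products are pumped into the endoplasmic reticulum by the TAP1 and TAP2 transporter and loaded onto a heavy chain such as H-2K or H-2D that is paired with β2-microglobulin, and interferons raise the transcription of the whole pathway. Class II molecules are made mainly by dendritic cells, macrophages and B cells, where an α and a β chain assemble around the invariant chain CD74 and later take up peptides from engulfed material. CIITA, which does not bind DNA itself, joins the factors bound to class II promoters and switches these genes on together. Resting muscle fibres carry little class I and no class II protein, so in a piece of whole muscle the class II transcripts come largely from resident leukocytes. In such bulk tissue fewer cells of a type and less RNA per cell cannot be told apart. C57BL/6 mice carry the H-2b haplotype, in which the α chain of the I-E molecule is not expressed, so the product of H2-Eb1 does not reach the surface as I-E.

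Signals are given on the log2 scale relative to each array's 75th percentile of processed signal, so that 0 is the signal at that percentile and negative values are dimmer. The 8 arrays shared 1 slide and 1 scan date, with the P. gingivalis arrays in slide row 2 and the control arrays in slide row 1. A difference between slide rows therefore cannot be told apart from one between groups. The 75th percentile before scaling ran from 238 to 255 on P. gingivalis arrays and from 275 to 306 on control arrays (exact permutation p = 0.0286, two-sided, which is the smallest possible with 4 arrays against 4). Correlations between arrays over the 31649 tested probes were 0.991 to 0.995. The deposited value table, matched to the scanner files by correlation, puts only 4 of the 8 arrays in the group that the scanner files give them: P. gingivalis arrays 3 and 4 and control arrays 1 and 2. In label order the value table's columns follow the slide column by column, so its groups are slide columns 1 and 2 (control) against 3 and 4. The scanner files' groups are the slide rows. Which source is right could not be settled. Results follow the scanner files, and values under the value table's groups are given beside them for the 10 genes only, not for other genes. Each of the 5 muscle markers (Acta1, Ckm, Myh4, Tnnt3 and Mylpf) had a probe well above background on all 8 arrays, and their fitted differences had a median of 0.14.

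The probes are oligonucleotides of 60 bases, and some of their sequences bear on how the values can be read. The dimmer H2-K1 probe (chr17:34133984-34134043, mm9, minus strand) shares a run of 29 bases, in capitals, with probes that the array assigns to H2-L and H2-T23, so it may read several class I heavy chains. The next pair of sequences is from the H2-Ab1 probes of highest signal, which overlap by 51 bases (chr17:34406296-34406355 and chr17:34406305-34406363, mm9, plus strand). They differ at 1 base in the overlap, T51C counted from 1 at the 5′ end of the brighter probe, shown in capitals in a stretch of 30 bases from each. The last pair gives the H2-Ab1 probe of lowest signal (chr17:34404357-34404416, mm9, plus strand) and the only H2-Aa probe (chr17:34421285-34421344, mm9, minus strand), which lie in other stretches of sequence and share no run of 16 bases with any other probe.
H2-K1, dimmer probe: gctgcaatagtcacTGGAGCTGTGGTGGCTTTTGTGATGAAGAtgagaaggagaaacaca
H2-Ab1, brightest probe: agattacaaataaacgagacTcagactctg
H2-Ab1, second probe: caaataaacgagacCcagactctggttatt
H2-Ab1, dimmest probe: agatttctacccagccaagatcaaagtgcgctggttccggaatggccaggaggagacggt
H2-Aa, probe: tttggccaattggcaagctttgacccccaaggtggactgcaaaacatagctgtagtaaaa

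No antigen presentation gene passed the adjusted threshold. Of the 16 tested probes 0 had an adjusted p under 0.05 by limma (Benjamini-Hochberg, adjusted over every tested probe), as was the case for 0 of all 31649 tested probes (0%). At an unadjusted p under 0.05 there were 2 of the 16 probes, the brightest of Tap2 and of Ciita, both lower in P. gingivalis muscle. Over all tested probes the share was 11.2% in either direction, 4.84% higher and 6.36% lower in P. gingivalis muscle. The groups of arrays overlapped on all 16 tested probes, against 6.67% of all tested probes whose groups did not overlap (3.01% with P. gingivalis higher and 3.66% with P. gingivalis lower). The fitted difference was below 0 on 15 of the 16 probes and above 0 on 1, where 54.3% of all tested probes were below 0. The 16 probes are not independent, since several are of H2-Ab1, and the second B2m probe entered through the control arrays. By their brightest probes H2-Ab1 and Cd74 were at only -0.01 and -0.02, and their signs turned when certain single arrays were left out. With 2 probes at an unadjusted p under 0.05, the share of the 16 was near that of all probes. The lowest adjusted p among the genes was 0.392.

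**Figure D1:**
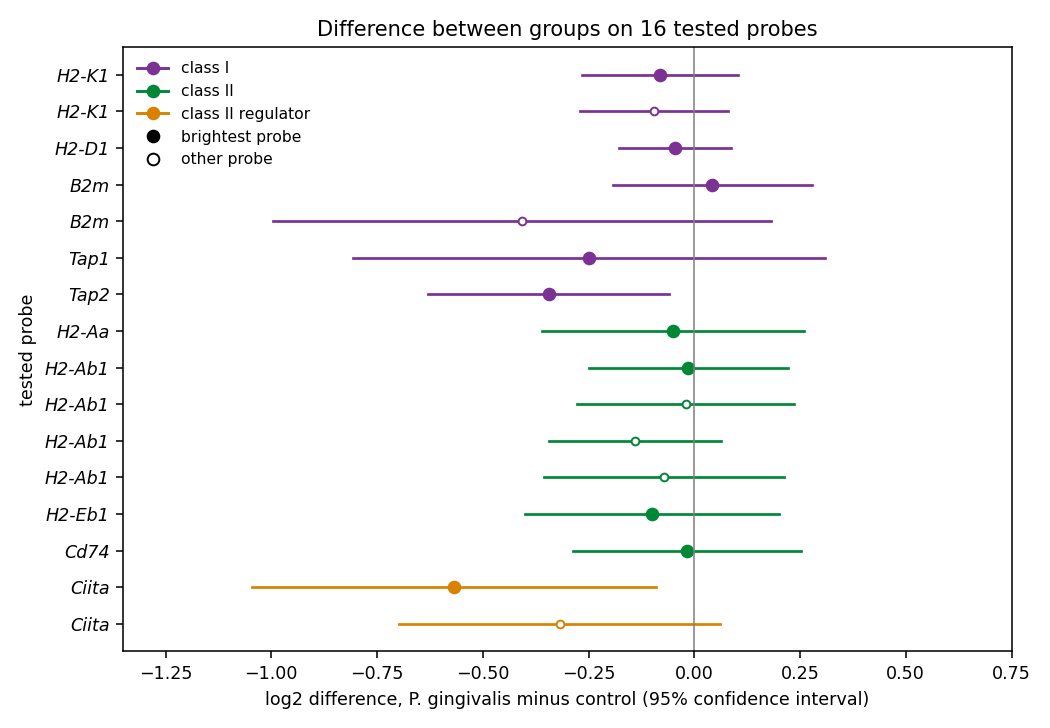
Log2 difference between P. gingivalis and control arrays (x axis, P. gingivalis minus control) for each of the 16 tested probes (y axis, named by gene), with points for the limma estimate from 4 arrays per group and bars for its 95% confidence interval; filled points are the brightest probe of a gene. Only the brightest probes of Tap2 and Ciita have intervals that leave out 0, and 1 probe, of B2m, has a positive estimate.

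H2-K1 encodes the heavy chain of H-2K, one of the classical class I molecules that present peptides to CD8 T cells. Its brighter probe (chr17:34133055-34133114, mm9) stood at 3.98, 4.15, 4.12 and 4.08 on P. gingivalis arrays 1 to 4, against 4.17, 4.24, 3.98 and 4.26 on control arrays 1 to 4. The groups overlapped, since control array 3 lay at the level of the lowest P. gingivalis array. The fold was 0.946 (95% confidence interval 0.832 to 1.07, adjusted p = 0.722 by limma), and on the dimmer probe 0.936 (adjusted p = 0.658).

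The other classical heavy chain measured is H-2D, the product of H2-D1. Its probe (chr17:35403886-35403945, mm9) stood at 2.75, 2.87, 2.78 and 2.74 on P. gingivalis arrays and at 2.80, 2.84, 2.80 and 2.88 on control arrays. This was the narrowest interval of the 16 probes, with a fold of 0.969 and bounds of 0.884 and 1.06 (adjusted p = 0.793 by limma). The array also carries 2 probes under the name H2-L whose accession list includes the H2-D1 transcript, and they differed by -0.08 and -0.04 on the log2 scale, with groups that overlapped on both.

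B2m encodes β2-microglobulin, the light chain without which class I heavy chains do not reach the cell surface. On P. gingivalis arrays its brighter probe (chr2:121978401-121978460, mm9) stood at 3.51, 3.90, 3.75 and 3.76, against 3.69, 3.84, 3.51 and 3.72 on control arrays. The fold of 1.03 (0.876 to 1.21) was the only one above 1 among the tested probes. Its sign turned under 6 of 19 other processings, some of which cannot change the difference, such as those of the filter. The second B2m probe, listed against a cDNA clone (accession AK086184) at chr2:121974599-121974658, was far dimmer, with -4.48 ± 0.44 in P. gingivalis and -4.08 ± 0.39 in control muscle (SD, n = 4 each). It was well above background on 2 P. gingivalis and 4 control arrays, so it entered the test through the control arrays, and its difference of -0.41 had an interval of -0.995 to 0.18.

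Tap1 and Tap2 encode the paired chains of the peptide transporter of the endoplasmic reticulum. The tested Tap1 probe (chr17:34334022-34334081, mm9) stood at -2.80, -2.40, -2.60 and -2.57 on P. gingivalis arrays and at -2.73, -1.62, -2.77 and -2.26 on control arrays. Control array 2 was the highest of all 8 and the other 3 lay between -2.77 and -2.26, among or above the P. gingivalis arrays. The difference was -0.25 ± 0.24 (SE, adjusted p = 0.716 by limma), and without control 2 it was -0.0064. The other Tap1 probe was well above background on 0 P. gingivalis arrays and 1 control array, and no size is given for it.

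Tap2 had the lowest p of the class I genes. Its tested probe (chr17:34353116-34353175, mm9) stood at 0.39, 0.49, 0.64 and 0.66 on P. gingivalis arrays 1 to 4, against 0.91, 1.19, 0.62 and 0.84 on control arrays 1 to 4. Control arrays 1, 2 and 4 were above every P. gingivalis array, while control array 3 lay inside the P. gingivalis range. The fold was 0.788 (0.647 to 0.959), with an unadjusted p of 0.0231 and an adjusted p of 0.392 by limma. Under the value table's own labels the difference was -0.03 in place of -0.34, and with its groups applied to the scanner values -0.06. On the 4 arrays that both sources group alike it was -0.40. The second Tap2 probe was well above background on only 1 of the 8 arrays.

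**Figure D2:**
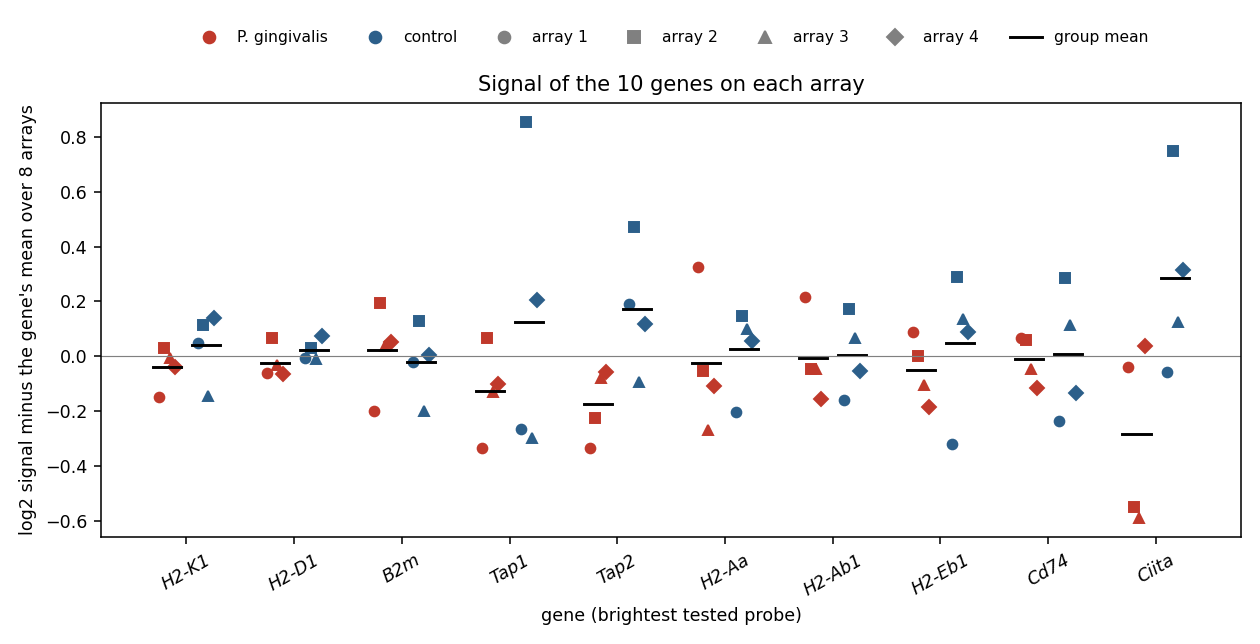
Signal of the brightest tested probe of each of the 10 genes on every array (y axis, log2 signal minus the gene's mean over the 8 arrays; x axis, genes), with P. gingivalis arrays left of control arrays, marker shapes for the array number and black bars for group means. The groups overlap for each gene; control array 2 is the highest point for Tap1, Tap2, H2-Eb1, Cd74 and Ciita.

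All 4 class II chain genes had fitted differences within 0.10 of 0 on the log2 scale, each smaller than its SE. H2-Aa, which encodes the α chain of the I-A molecule, stood at -0.25, -0.63, -0.84 and -0.68 on P. gingivalis arrays, against -0.78, -0.43, -0.47 and -0.52 on control arrays. P. gingivalis array 1 was the highest of the 8 and P. gingivalis array 3 the lowest. The fold was 0.965 (0.779 to 1.20, adjusted p = 0.911 by limma).

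H2-Ab1, which encodes the β chain of the same molecule, was read by 4 tested probes. The brightest stood at 3.13, 2.87, 2.87 and 2.76 on P. gingivalis arrays and at 2.76, 3.09, 2.98 and 2.86 on control arrays, a fold of 0.990 (0.841 to 1.17). The overlapping second probe gave 0.986, and the other 2 gave 0.908 and 0.951. On the third probe by signal (chr17:34406059-34406118, mm9) the P. gingivalis arrays lay between 1.55 and 1.59 and the control arrays between 1.47 and 1.89. All 4 probes were thus on the same side of 0, and none had an interval that left out 0.

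For H2-Eb1, the β chain gene of I-E, the probe at chr17:34453075-34453134 (mm9) read 2.63, 2.55, 2.44 and 2.36 on P. gingivalis arrays and 2.23, 2.83, 2.68 and 2.63 on control arrays. Control arrays 1 and 2 were the lowest and the highest of the 8, with all P. gingivalis arrays between them. The fold was 0.933 (0.758 to 1.15, adjusted p = 0.797 by limma).

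Cd74 encodes the invariant chain, which fills the groove of a new class II molecule and guides it to the endosome. Its probe (chr18:60972075-60972132, mm9) stood at 2.12, 2.11, 2.01 and 1.94 on P. gingivalis arrays, against 1.82, 2.34, 2.17 and 1.92 on control arrays. As for H2-Eb1, the control arrays held both extremes, and the fold was 0.988 (0.819 to 1.19, adjusted p = 0.970 by limma). Over the 4 class II chain genes the median difference was -0.03 and the range -0.10 to -0.01. The 5 class I genes had a median of -0.08 and a range of -0.34 to 0.04, and the median over all tested probes was -0.0155. With the value table's groups on the scanner values the class II median was -0.091, with H2-Aa at -0.11, H2-Ab1 at -0.093, Cd74 at -0.089 and H2-Eb1 at -0.0305. The class I median was then -0.052, with H2-K1 at -0.0235, H2-D1 at -0.016, B2m at -0.052 and Tap1 at -0.16.

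Ciita had the largest difference of the 10 genes and a dim signal. Its brightest probe (chr16:10526458-10526517, mm9) stood at -3.19, -3.70, -3.74 and -3.11 on P. gingivalis arrays 1 to 4, against -3.21, -2.41, -3.03 and -2.84 on control arrays 1 to 4. P. gingivalis arrays 2 and 3 were below every control array, while arrays 1 and 4 overlapped with control array 1. The fold was 0.675 (0.485 to 0.939), with an unadjusted p of 0.0250 and an adjusted p of 0.398 by limma. A second probe, listed against a cDNA clone at chr16:10492271-10492330 (mm9), was well above background on 3 P. gingivalis and 4 control arrays and differed by -0.32 (interval -0.70 to 0.06). The remaining 2 Ciita probes were well above background on 1 of 8 and 2 of 8 arrays. Under normexp background correction, which adds a constant to the signal and compresses dim probes, the difference of the brightest Ciita probe was -0.06. With the value table's groups on the scanner values it was -0.05, and that of the second probe was -0.30. On the 4 arrays that both sources group alike the brightest probe differed by -0.62.

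**Figure D3:**
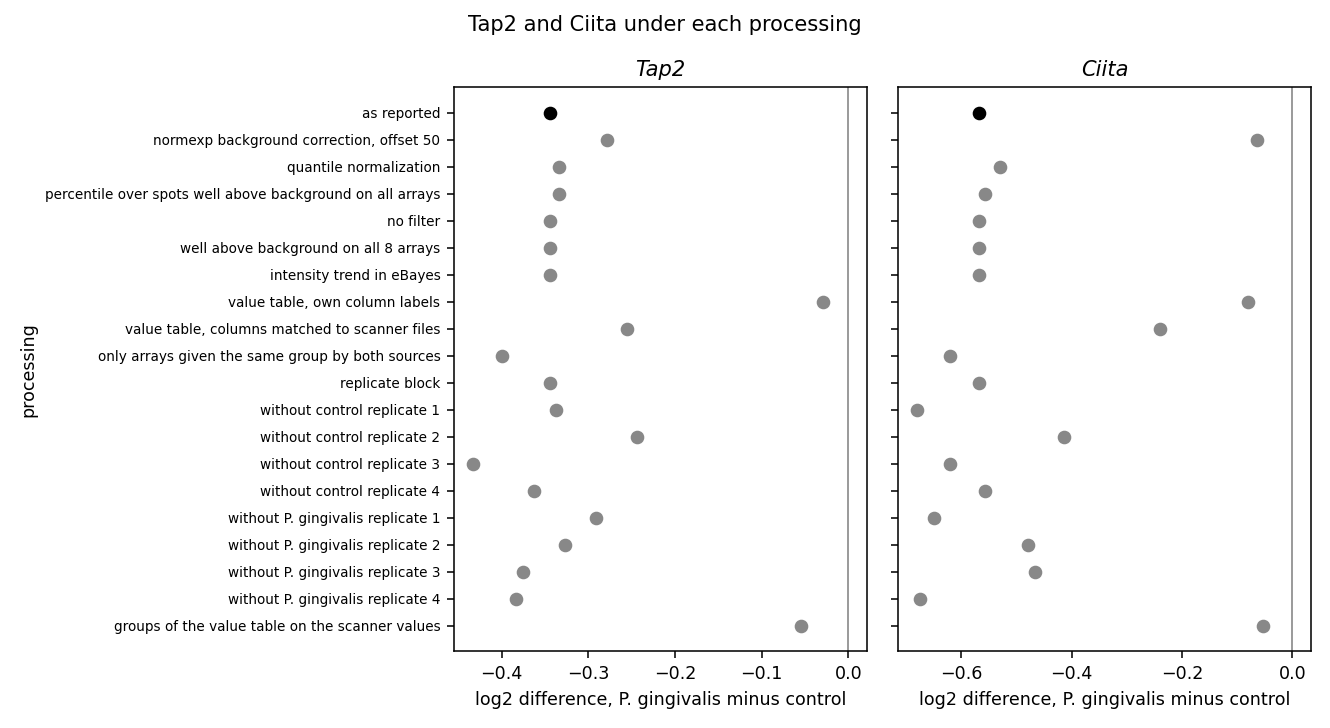
Log2 difference between P. gingivalis and control arrays (x axis) of Tap2 and Ciita under each processing (y axis, the reported one at the top in black). Both stay below 0 throughout, at -0.34 and -0.57 as reported, and by these brightest probes both come near 0 with the labels of the value table. On the 4 arrays that both sources group alike they are at -0.40 and -0.62. Processings that change only the filter, the estimate of the spread or the block keep the reported difference by construction.

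By the brightest probes, the difference between groups was smaller than the SD within either group for B2m and the class II chain genes. It lay between the SDs of the groups for H2-K1, H2-D1 and Tap1, and was larger than both for Tap2 and Ciita. The differences between single arrays followed the division into class I and class II by their medians, but not for every pair of genes. Across the 8 arrays the 4 class II chain genes had alike profiles, with a median Pearson r of 0.82 over 6 gene pairs (0.61 to 0.86). The 5 class I genes had a median r of 0.68 over 10 pairs (0.37 to 0.74). Between a class I and a class II gene the median was 0.03 over 20 pairs (-0.45 to 0.59). The highest of these were of Tap1, with H2-Eb1 (0.59) and Cd74 (0.54), above the lowest values within class I. When each array was taken as its deviation from its group mean, the medians were 0.69 for class I, 0.83 for class II and -0.04 between the classes. Without control 2 they were 0.67, 0.76 and -0.40 over 7 arrays. By its brightest probe Ciita followed this division only in part. Its r was 0.37 to 0.55 with the class II genes (median 0.46) and -0.11 to 0.71 with the class I genes (median 0.31), highest with Tap2 (0.71) and Tap1 (0.61). The medians became 0.16 and 0.0083 without control 2. As deviations from the group means they were 0.51 with class II (0.46 to 0.62) and 0.04 with class I (-0.22 to 0.55). The second Ciita probe had r of 0.49 to 0.58 with the brightest class II probes and -0.23 to 0.48 with those of class I. All points share the same 8 arrays and their scaling, so these values are descriptions, and no p is given.

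**Figure D4:**
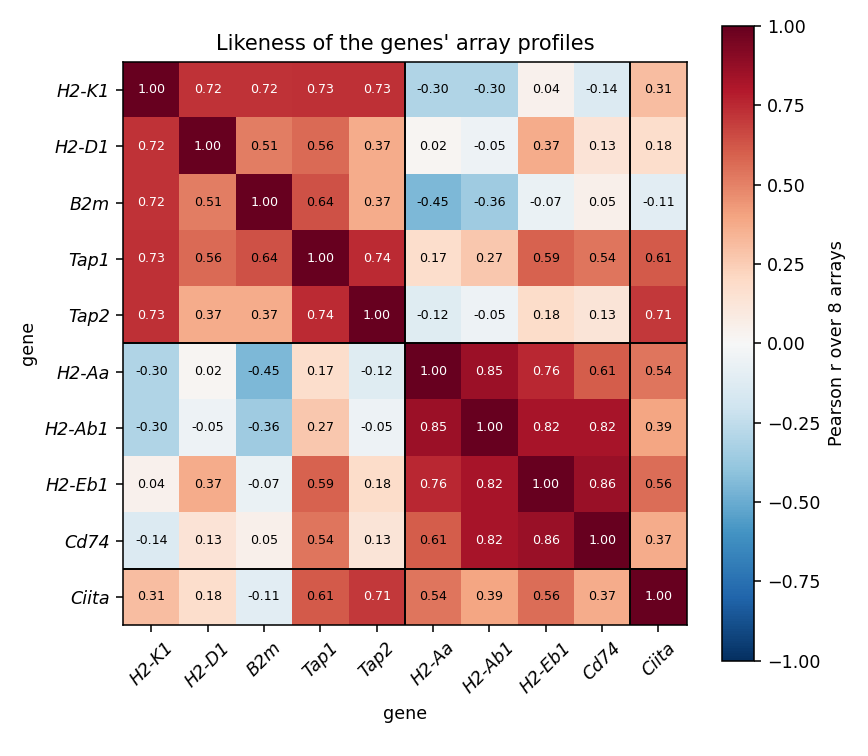
Pearson r over the 8 arrays between the brightest probes of each pair of the 10 genes (both axes list the genes; lines part class I, class II and Ciita). Values within class I are 0.37 to 0.74 and within class II 0.61 to 0.86, while those between the classes run from -0.45 to 0.59.

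Averaged over their genes after each gene was centred on its own mean, the class I genes stood at -0.21, 0.03, -0.04 and -0.04 on P. gingivalis arrays 1 to 4 and at -0.01, 0.32, -0.15 and 0.11 on control arrays 1 to 4. Control arrays 2 and 4 were the highest and P. gingivalis array 1 the lowest. The class II genes stood at 0.17, -0.0091, -0.12 and -0.14 on P. gingivalis arrays and at -0.23, 0.22, 0.11 and -0.0094 on control arrays. P. gingivalis array 1, lowest for class I, was the second highest for class II. Control array 2 was the highest array on 7 of the 16 tested probes, against 17.9% of all tested probes. Control array 1 was the lowest on 6 of the 16, namely every H2-Ab1 probe and the probes of H2-Eb1 and Cd74. The share of all probes on which it was lowest was not computed. Probes of H2-Ab1 are in both counts and are not independent. The SD between control arrays exceeded that between P. gingivalis arrays on 10 of the 16 probes (62.5%), against 54.7% of all tested probes.

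**Figure D5:**
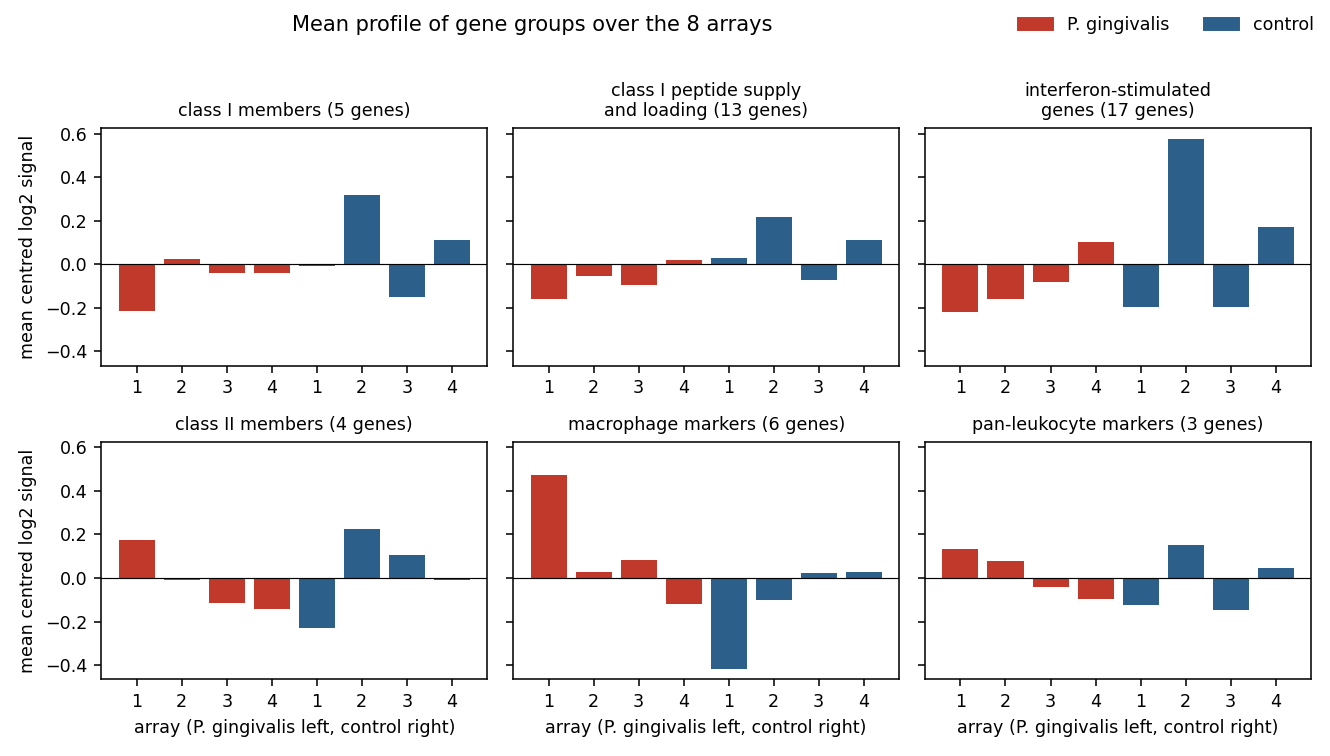
Mean log2 signal of 6 gene groups on each array, each gene centred on its mean over the 8 arrays (y axis), with P. gingivalis arrays left and control arrays right (x axis, array number). Control array 2 is highest in every group but the macrophage markers. It stands at 0.32 in class I genes, 0.22 in class I peptide supply genes, 0.58 in interferon-stimulated genes, 0.22 in class II genes and 0.15 in pan-leukocyte markers. P. gingivalis array 1 is highest in macrophage markers (0.47).

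The sequence before the transcription start was looked at for genes that moved together. RefSeq (GRCm38.p6) gave promoters for 6 of the 10 genes, H2-K1, H2-D1, B2m, Tap1, H2-Aa and H2-Eb1. The 4 others, Tap2, H2-Ab1, Cd74 and Ciita, were not looked at. In 250 bases before the start, 3 motifs were searched on both strands: GAAA, any 2 bases and GAAA again, the core of the interferon-stimulated response element (ISRE), ATTGG, the reverse of the CCAAT box and core of the Y box of MHC promoters, and TGACG, the core of the site bound by CREB-family factors. ATTGG matched in all 6 promoters, against 33.8% of 32851 promoters, and TGACG in 5, against 17.8%. The ISRE core matched in 1, that of B2m, against 2.98%. Only these exact letters were counted, so variant forms of an element would be missed and stay in lower case. The 4 promoters below show class I and class II side by side, with all matches in capitals. Overlapping matches appear as 1 run, as in H2-Aa, where TGACG lies on both strands.
H2-K1, chr17:34000334-34000583, minus strand: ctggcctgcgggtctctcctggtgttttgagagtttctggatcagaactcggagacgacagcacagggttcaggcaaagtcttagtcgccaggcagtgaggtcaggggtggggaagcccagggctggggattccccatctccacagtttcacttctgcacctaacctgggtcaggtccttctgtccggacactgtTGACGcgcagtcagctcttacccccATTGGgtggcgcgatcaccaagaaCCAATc
B2m, chr2:122147437-122147686, plus strand: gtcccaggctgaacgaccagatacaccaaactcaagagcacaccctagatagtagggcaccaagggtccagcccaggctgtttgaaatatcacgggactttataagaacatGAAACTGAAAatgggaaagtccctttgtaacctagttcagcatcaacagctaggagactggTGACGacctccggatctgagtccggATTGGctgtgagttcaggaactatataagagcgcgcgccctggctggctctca
H2-Aa, chr17:34287824-34288073, minus strand: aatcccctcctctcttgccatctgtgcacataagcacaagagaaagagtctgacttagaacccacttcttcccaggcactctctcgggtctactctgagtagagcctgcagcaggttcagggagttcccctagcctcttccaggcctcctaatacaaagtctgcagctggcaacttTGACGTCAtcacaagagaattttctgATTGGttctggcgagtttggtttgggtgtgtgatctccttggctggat
H2-Eb1, chr17:34305617-34305866, plus strand: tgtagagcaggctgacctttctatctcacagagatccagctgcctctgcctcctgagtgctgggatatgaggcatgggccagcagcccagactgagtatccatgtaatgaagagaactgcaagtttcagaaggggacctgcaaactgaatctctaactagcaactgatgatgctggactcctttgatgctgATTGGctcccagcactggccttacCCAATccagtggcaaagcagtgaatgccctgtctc

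ATTGG matches lay at unequal distances from the start. They were at 53 bases in B2m, 48 in H2-Aa, 59 and 35 in H2-Eb1, 76 and 53 in H2-D1, 222 in Tap1, and 30 and 6 in the printed H2-K1 promoter. TGACG lay at 78 bases in B2m, 74 and 71 in H2-Aa, 101 in H2-D1, 86 in Tap1 and 55 in H2-K1, and it was not found in the H2-Eb1 window. A match describes the letters in this window and is not evidence of a bound factor. The lack of a match is not evidence that an element is absent.

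Among the other genes of the pathway 0 passed adjustment. Counts of lower genes below are to be read against the 54.3% of all tested probes whose difference was below 0. Of 20 other class I genes, mostly of the H2-Q, H2-T and H2-M families, 17 were tested and 0 passed adjustment, with 11 lower and 6 higher and a median of -0.06. H2-M2 differed by -0.15 (unadjusted p = 0.0308, adjusted p = 0.412 by limma), H2-Q8 by -0.15 (adjusted p = 0.435) and H2-M9 by -0.48 (adjusted p = 0.435). On P. gingivalis arrays H2-M9 cleared background on 2 of 4. The arrays of the groups did not overlap for H2-M2, at -0.65 to -0.61 on P. gingivalis arrays and -0.56 to -0.41 on control arrays, and for H2-Q2, at 2.41 to 2.46 on P. gingivalis arrays and 2.52 to 2.57 on control arrays. Those were 2 of 17 genes, against 6.67% of all tested probes. A dimmer probe of H2-Q7, chosen for mention after its value was seen, differed by -0.36 (unadjusted p = 0.0182 by limma). The brightest H2-Q7 probe gave -0.08 and another gave 0.06. H2-Q and H2-T genes are near copies of each other and their signals may be shared between members.

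Genes that make and load class I peptides were lower for 8 and higher for 5 of 13, with a median of -0.09, and 0 passed adjustment. Psme1, a subunit of the proteasome activator PA28, stood at 3.79 to 3.94 on P. gingivalis arrays and 3.90 to 4.13 on control arrays (fold 0.893, adjusted p = 0.443 by limma). Nlrc5, the class I counterpart of Ciita, differed by -0.69 on its brighter probe (adjusted p = 0.444 by limma) but by 0.17 on another. Psmb9, an interferon-induced proteasome subunit whose gene lies next to Tap1, stood at -1.42, -1.07, -1.05 and -0.82 on P. gingivalis arrays, against -0.70, -0.02, -1.11 and -0.53 on control arrays. As for Tap2, control arrays 1, 2 and 4 were above every P. gingivalis array and control array 3 was not. Its fold was 0.707 (0.496 to 1.01). A dimmer probe of Pdia3, another of the 13 genes, was chosen for mention after its value was seen. It was higher in P. gingivalis muscle by 0.35 (unadjusted p = 0.0147 by limma), with 0.0087 on the brightest Pdia3 probe.

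Of the class II genes outside the 10, only H2-DMa and H2-DMb1, the chains of the peptide-exchange molecule H2-M, were bright enough to test. They differed by -0.14 and -0.05, within the spread between arrays. Among 16 tested genes of endosomal proteolysis and class II regulation, 10 were lower and 6 higher with a median of -0.03, and 0 passed adjustment. By their brightest probes those of lowest p were the protease genes Ctsd (-0.15, adjusted p = 0.512 by limma) and Lgmn (-0.11), followed by Nfya, a subunit of the factor that binds the CCAAT box (-0.15, with 0.12 on its other probe). Dimmer probes of 2 other genes had lower unadjusted p and were higher in P. gingivalis muscle, chosen for mention after their values were seen. These were a probe of the co-stimulatory gene Cd86 at 0.995 (0.28 on its brightest probe) and a probe of Nfyc at 0.25 (0.0020 on its brightest probe).

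Upstream, 9 genes of the interferon-γ pathway were tested, 6 lower and 3 higher, with a median of -0.07. Irf1, a transcription factor that interferon induces and that raises class I genes, stood at 0.71, 0.94, 0.88 and 0.82 on P. gingivalis arrays, against 1.16, 1.41, 0.84 and 1.11 on control arrays (fold 0.816, adjusted p = 0.429 by limma). Control array 3 was again the control array inside the P. gingivalis range. Ifngr2, which encodes a chain of the interferon-γ receptor, differed by -0.11. Of 17 tested interferon-stimulated genes without a presentation role 14 were lower, with a median of -0.20 and 0 past adjustment, among them Bst2 (-0.30), Igtp (-0.33) and Stat2 (-0.28). Their mean profile was -0.22, -0.16, -0.08 and 0.10 on P. gingivalis arrays and -0.20, 0.58, -0.20 and 0.17 on control arrays. It was highest in control array 2, as for class I and class II.

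The cell types that carry class II were checked by their markers, whose part in the class II values was not tested. Of 7 macrophage markers 6 were tested and 5 of them were higher in P. gingivalis muscle, with a median of 0.17 and 0 past adjustment. Csf1r stood at 2.32 to 2.73 on P. gingivalis arrays and at 1.95 to 2.31 on control arrays, and Cd163 differed by 0.64. The macrophage profile was 0.47, 0.03, 0.08 and -0.12 on P. gingivalis arrays 1 to 4 and -0.42, -0.10, 0.02 and 0.03 on control arrays 1 to 4. Its lowest array, control 1, was also the lowest for class II, and its highest, P. gingivalis array 1, was the second highest for class II. P. gingivalis array 4 was below the mean for both, and control array 3 was above it for both. Control array 2, the highest for class II, was below the macrophage mean. P. gingivalis arrays 2 and 3 and control array 4 were above the macrophage mean and below that of class II. Dendritic cell markers had 3 of 4 tested genes lower, B cell markers 3 of 4 higher and T cell markers 2 of 2 lower. The dendritic cell gene Flt3 entered the test through the control arrays, being well above background on 2 P. gingivalis and 4 control arrays. Xcr1 and Clec9a of dendritic cells, Cd79a of B cells and Cd3g of T cells were well above background on 0 arrays. Pan-leukocyte markers had 2 of 3 lower, with a median of -0.02, and their mean centred profile ran from -0.09 to 0.13 on P. gingivalis arrays and from -0.15 to 0.15 on control arrays. All 4 endothelial markers had differences below 0, of -0.01 to -0.05 except for Kdr, a receptor for vascular endothelial growth factor, at -0.59. Kdr stood at 0.69 to 1.02 on P. gingivalis arrays and at 1.11 to 1.79 on control arrays, which did not overlap (unadjusted p = 0.00378, adjusted p = 0.323 by limma). Of the 4 neutrophil genes Mpo differed by -0.14, less than the SD within either group. The Ly6g difference of -0.10 lay between the SDs of its groups, while S100a8 and S100a9 differed by -3.42 and -2.93. S100a8 was well above background on 2 P. gingivalis and 4 control arrays. S100a9 stood at -3.92 to -2.31 on P. gingivalis arrays and at 0.65, 0.67, -2.64 and 1.20 on control arrays 1 to 4, so that control array 3 lay inside the P. gingivalis range (adjusted p = 0.329 by limma).

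Among 13452 genes that were well above background on all arrays and belong to none of the lists, the profile most like that of the class I genes was that of Cdk8 (r = 0.976), followed by Trmt1l, Tgtp2, Kif5b and Trio (r of 0.962 to 0.966). Tgtp2 is an interferon-inducible GTPase, and it differed by -0.58 between groups (adjusted p = 0.548 by limma). For the class II genes the nearest were Pcdhb21 (r = 0.946), Ehd3, Nup160, Ubtd2 and Snx20 (r of 0.922 to 0.945). With 8 arrays and this many candidates such values are a ranking only.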

How the data were processed

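The authors' deposited scanner files hold spot intensity. The software was Agilent Feature Extraction, given as 11.0.1.1 by the file headers but as 11.1 by the submitters' processing notes. Per the labels' protocols, 200 ng of RNA was labelled with 1 dye (Cy3). Per the file headers, processed intensity was background-subtracted within each array, not normalized between arrays. Probe positions are on mm9, per the file headers. The deposited value table holds log2 signals of 24764 probes, 12 of the 20 probes described here among them. Its column quantiles are nearly equal, and its exact scaling is not given in the sources used here. Its columns were matched to the arrays by correlation of probe-centred values (0.851 to 0.904, next best at most 0.0772).

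Control spots and outlier spots (0.108% to 0.218%) were left out, log2 processed signal was taken less each array's 75th percentile, and spots of a probe were averaged. No spot was saturated, and 56.3% to 59.3% were well above background. The number of arrays limits the precision. The comparison of P. gingivalis with control arrays used lmFit and eBayes of limma 3.58.1 (R 4.3.3) over 31649 probes, with Benjamini-Hochberg adjustment and a threshold of 0.05. The fit was tested on simulated data. A gene stands by its brightest tested probe. Other genes were named through RefSeq accessions and symbols (GRCm38.p6). From each pathway list the text names the 3 genes of lowest p and those whose groups do not overlap, except 1 gene that is not reported here. From the marker lists it names single genes, chosen after their values were seen. The genes and lists were chosen with earlier results of these data known. Numbers shared by replicates did not pair the arrays (correlations of deviations 0.0069 to 0.0628).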

Additional observations from a re-analysis of the deposited data

Results flagged for a closer look

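On the dimmest H2-Ab1 probe, P. gingivalis array 4 stood at -0.79, while the other 3 P. gingivalis arrays lay between -0.50 and -0.46. The gap is 0.868 of the group's whole range, above Dixon's critical value at 95% for 4 samples. It was the only such sample in 32 groups examined (16 probes in both groups), where chance gives about 1 in 20. On the brightest H2-Ab1 probe the same array was at 2.76, the lowest of the P. gingivalis arrays by a smaller gap. On the remaining H2-Ab1 probes P. gingivalis array 4 was not the lowest of its group. It was at 2.68 on the probe at chr17:34406305-34406363, where P. gingivalis array 3 was at 2.61. On the probe at chr17:34406059-34406118 it was at 1.559, where P. gingivalis array 3 was at 1.547.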

How the results depend on the processing

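Under 19 other processings 0 probes of the 10 genes and 0 pathway genes passed adjustment. Over all probes, where the reported fit called 0 of 31649, normexp correction called 14, an intensity trend 2, no filter 2 and the value table with matched columns 1. At an unadjusted p under 0.05 the count over all probes was 3544 as reported, 9094 with normexp, 906 with the value table's own labels and 1224 with its groups on the scanner values. That last processing was added after the data were seen. By their brightest probes H2-K1, Tap1, Tap2 and Ciita were lower in P. gingivalis muscle under all 19, at -0.14 to -0.0094, -0.41 to -0.0064, -0.43 to -0.03 and -0.68 to -0.05. The lowest adjusted p of any was 0.0836 (Tap2, normexp). Processings of the filter, the intensity trend and the block keep the reported difference by construction. Those with the value table's labels or groups compare other sets of arrays. The second Ciita probe turned to 0.11 with normexp. B2m turned to -0.028 with normexp, -0.069 with the value table's own labels, -0.0085 on the 4 arrays that both sources group alike and -0.052 with the value table's groups. Its other probe gave -0.41 and the mean of its probes -0.18. With the value table's own labels H2-D1 turned to 0.028 and H2-Eb1 to 0.050. Leaving out 1 array at a time gave -0.016 to 0.12 for B2m, -0.17 to 0.030 for H2-Aa, -0.089 to 0.041 for H2-Ab1 and -0.10 to 0.075 for Cd74. It gave -0.22 (without control 1, unadjusted p = 0.0442 by limma) to -0.02 (without control 2) for H2-Eb1, and a class I median of -0.14 (without control 3) to -0.042 (without control 2). Leaving out control 2 or control 3 turned H2-Ab1 (0.041 and 0.0059) and Cd74 (0.075 and 0.018), and leaving out P. gingivalis 4 did so too (0.035 and 0.018). The class II median was 0.015 without control 2. With the replicate number as a block the differences are the same by construction, 0 probes passed, and the Ciita adjusted p was 0.464. The causes were not tested. Signal over background limits Ciita, Tap1 and the second B2m probe.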
